A study of Mus musculus with 8 samples.

Results

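Aminoacyl-tRNA synthetase mRNAs were followed through RNA immunoprecipitations (IPs) of mouse embryonic stem (ES) cells. Members were chosen by the gene name printed on the array: an amino acid letter followed by ars, with or without a final 1 or 2, and in addition Eprs, Ears2, Pars2, Fars2 and the subunit names of phenylalanyl-tRNA synthetase. The rule matched 31 of 27666 genes with a probe. By their RefSeq accessions, 20 of them were cytosolic synthetase genes, 10 were mitochondrial synthetase genes and 1 was no synthetase. The probe that the array calls Vars2 belonged to Vars, the cytosolic valyl-tRNA synthetase gene, and the probe it calls Hars2 belonged to Dtd1, which encodes a D-aminoacyl-tRNA deacylase. Mars on the array is Mars1 in the RefSeq table, and Farsla and Farslb are Farsa and Farsb. All 31 genes passed the filter on dim probes that left 14678 genes for testing, and the counts below are over the 30 synthetase genes. A further 7 mitochondrial synthetase genes stood on the array under older names that the rule does not match, and they are described apart.

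Aminoacyl-tRNA synthetases join each amino acid to its tRNA and so supply every ribosome with charged tRNAs. Cytosol and mitochondria have separate translation systems, and most mitochondrial synthetases come from nuclear genes of their own whose symbols end in 2. Gars and Kars are exceptions, since each encodes both the cytosolic and the mitochondrial enzyme, and Eprs encodes glutamyl- and prolyl-tRNA synthetase in a single protein. Several cytosolic synthetases assemble with scaffold proteins into the multisynthetase complex.

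All samples came from a transgenic ES cell line called Dazl-GFP, re-derived and grown on feeder fibroblasts in 15% fetal bovine serum with leukemia inhibitory factor, 1 µM PD0325901, an inhibitor of the kinase MEK, and 3 µM CHIR99021, an inhibitor of the kinase GSK3. The 3 groups were the GFP IP (3 arrays), the PABP1 IP (2 arrays) and the input RNA that both IPs share for comparison (3 arrays). DAZL binds RNA in germ cells, and PABP1 is a poly(A) binding protein that coats mRNA tails; the IPs were native, that is, without crosslinking, and the labels do not say whether GFP is joined to DAZL in this line. An IP with a control antibody is not part of these comparisons. Whether a group's arrays stand for separate cultures is not stated, so the p-values rest on a spread between samples that may be technical.

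Each array was a 1-colour Agilent array, and between 41.5% and 52.6% of its 43379 probe spots were well above background. A value below is the log2 of a probe's processed signal over the 75th percentile of its array, called log2 signal, and a difference between groups sets the share that an mRNA takes of one RNA pool against its share of another. Differences are given with the standard error and adjusted p of limma, and a gene is called higher or lower where the adjusted p is under 0.05. Arrays stood on 2 slides that each held all 3 groups, and deviations from the group means followed the slide: correlations across genes were 0.443 to 0.769 between arrays of a slide and −0.769 to −0.295 between slides. All 11 ES cell markers on the array were well above background on all inputs, and so were 16 of 20 feeder fibroblast markers, while Pdgfra was well above background on no array. The summed feeder signal, in multiples of the 75th percentile, was 74.0 to 111 in the GFP IP, 284 to 285 in the PABP1 IP and 211 to 274 in the inputs. The summed signal of the ES cell markers was also lowest in the GFP IP, with 1526 to 2035 in the GFP IP, 2038 to 3943 in the PABP1 IP and 2277 to 4216 in the inputs. Gene by gene the ES cell markers went the other way in the GFP IP over input. There 6 of 11 were called higher and 2 lower, with a median difference of 0.55. For the feeder markers 2 of 19 tested were higher and 12 lower, with a median of −0.93. Shares over all genes tested were 21.4% higher and 43.3% lower. The part of either sum in the results below was not tested. Fewer cells of a type, less RNA per cell and lower recovery of their RNA in an IP cannot be told apart by these sums.

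Dazl mRNA itself was 3.81 ± 0.21 higher in the GFP IP than in the input (adjusted p = 2.17e-05) and fell by 1.70 ± 0.23 in the PABP1 IP against the input (adjusted p = 0.000628). Pabpc1, which encodes PABP1, was not called in either comparison (−0.86 and 0.22). The median gene also shifted with this scaling. It moved by −0.51 in the GFP IP over input, by 0.25 in the PABP1 IP over input and by −0.68 in the GFP IP over the PABP1 IP. Values relative to the median gene are therefore given beside the counts.

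Most synthetase mRNAs took a smaller share of the GFP IP than of the input. Of the 30 genes, 21 were lower (70%), 2 were higher (6.67%) and 7 were not called. Among all genes tested, 43.3% were lower and 21.4% were higher. The median difference of the 30 genes was −0.85, which was 0.34 below that of the median gene, and 21 of them lay below the median gene. When each array was centred on its median instead, 13 of the 30 genes were called lower (21.1% of all genes) and 3 higher (30.4% of all genes). With slide as a block and within each slide, 16 of the 21 lower and both higher calls were made again.

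Among the 20 cytosolic enzymes, 14 were lower, 1 was higher and 5 were not called, with a median of −1.05. The 3 lowest were the leucyl-, seryl- and cysteinyl-tRNA synthetases. Lars, the leucyl enzyme that also acts as a leucine sensor for mTORC1, had log2 signals of 4.49, 4.75 and 4.22 in the GFP IP, 5.19 and 4.81 in the PABP1 IP and 6.87, 6.86 and 6.51 in the input. All 3 GFP IP arrays lay below both PABP1 IP arrays, and these below all inputs. This is the order of the brightest Lars probe. Other Lars probes gave −0.22 and 1.73 for the GFP IP over the PABP1 IP and were not tested by themselves. For the brightest probe the difference was −2.26 ± 0.19 for the GFP IP over input (adjusted p = 8.2e-05), a 4.79-fold lower signal, with a 95% interval of −2.71 to −1.81. Sars, the seryl enzyme, had 5.97, 5.93 and 5.70 in the GFP IP, 7.26 and 6.83 in the PABP1 IP and 8.36, 8.13 and 7.69 in the input. Its groups did not overlap, and the GFP IP was −2.19 ± 0.21 over input (adjusted p = 0.000123). Cars, the cysteinyl enzyme, had 4.60, 4.71 and 4.42 in the GFP IP, 5.29 and 4.93 in the PABP1 IP and 6.87, 6.57 and 6.36 in the input, in the same order without overlap. It was −2.03 ± 0.18 over input in the GFP IP (adjusted p = 9.04e-05).

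Lower in the GFP IP than in the input were also the cytosolic enzymes for alanine (Aars, −1.79 ± 0.21), tryptophan (Wars, −1.59 ± 0.25), glutamate and proline (Eprs, −1.55 ± 0.16), threonine (Tars, −1.35 ± 0.14) and tyrosine (Yars, −1.34 ± 0.14). Smaller differences were called for methionine (Mars1, −1.24 ± 0.14), glutamine (Qars, −1.13 ± 0.19), histidine (Hars, −0.97 ± 0.18), lysine (Kars, −0.81 ± 0.12), isoleucine (Iars, −0.77 ± 0.19) and valine (Vars, −0.64 ± 0.14). The adjusted p-values of these 11 genes ran from 0.00017 to 0.00954. The last 4 of them, Hars, Kars, Iars and Vars, were no longer called once arrays were centred on their medians, where they were −0.44, −0.27, −0.24 and −0.11.

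Farsb, the beta subunit of the cytosolic phenylalanyl-tRNA synthetase, was the cytosolic mRNA called higher. It had −0.33, −0.94 and −0.40 in the GFP IP, −0.03 and 0.85 in the PABP1 IP and −1.90, −1.68 and −1.03 in the input. Every GFP IP array was above every input array, and both PABP1 IP arrays were above all GFP IP arrays. The GFP IP was 0.98 ± 0.32 over input (adjusted p = 0.0313), and it was 0.74 with slide as a block, 0.85 within slide 1 and 0.67 within slide 2, called in each. The call was lost without input 1 (0.80, adjusted p = 0.10), input 2 (0.91, adjusted p = 0.0881), GFP IP 1 (0.87, adjusted p = 0.0963) or GFP IP 3 (0.90, adjusted p = 0.0902). It was also lost with the normexp background correction (0.32, adjusted p = 0.542) and without the filter on dim probes (adjusted p = 0.0653). Farsa, the alpha subunit of the same enzyme, had 3.81, 3.68 and 3.71 in the GFP IP, 3.57 and 3.55 in the PABP1 IP and 4.03, 3.74 and 3.64 in the input. Its GFP IP and input values overlapped, and the difference was −0.07 ± 0.13 (adjusted p = 0.647, interval −0.38 to 0.24).

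The other cytosolic mRNAs without a call in the GFP IP over input were Dars, Gars, Rars and Nars. Dars, the aspartyl enzyme, had 0.90, 1.31 and 0.68 in the GFP IP, 2.21 and 1.96 in the PABP1 IP and 0.94, 0.84 and 0.37 in the input. The GFP IP overlapped the input (0.25 ± 0.22, adjusted p = 0.345). A fit that blocks on slide gave 0.40 over input (adjusted p = 0.0145). Gars, the glycyl enzyme of both compartments, had 0.93, −0.42 and 0.75 in the GFP IP, 0.04 and 1.10 in the PABP1 IP and −0.15, −0.21 and 1.14 in the input. Its 4 values on slide 1 lay between −0.42 and 0.04 and its 4 values on slide 2 between 0.75 and 1.14, so its arrays separated by slide and not by group. The difference was 0.16 ± 0.52, and −0.25 when blocked on slide (adjusted p = 0.0593). Nars, the cytosolic asparaginyl enzyme, was the other member whose arrays separated by slide. It had 2.80, 1.39 and 2.56 in the GFP IP, 2.20 and 3.34 in the PABP1 IP and 1.44, 2.33 and 3.86 in the input, a difference of −0.30 ± 0.68 that became −0.79 with slide as a block (adjusted p = 0.0409). Rars, the arginyl enzyme, had −2.60, −3.32 and −3.45 in the GFP IP, −1.56 and −1.04 in the PABP1 IP and −3.92, −2.89 and −2.07 in the input (−0.16 ± 0.47). It was well above background on 2 of 3 GFP IP arrays, both PABP1 IP arrays and 2 of 3 inputs, and its input values spanned those of the GFP IP.

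Of the 10 mitochondrial enzymes, 7 were lower in the GFP IP than in the input, 1 was higher and 2 were not called, with a median of −0.73. Nars2, the mitochondrial asparaginyl-tRNA synthetase, was the mRNA that stood out upward. It had log2 signals of −0.18, −0.49 and −0.13 in the GFP IP, −1.76 and −1.47 in the PABP1 IP and −2.16, −3.09 and −2.40 in the input, where 2 of 3 arrays were well above background. The GFP IP lay above the PABP1 IP, and the PABP1 IP above the input, on every array. It was 2.28 ± 0.25 over input (adjusted p = 0.000244, interval 1.68 to 2.88), a 4.86-fold higher signal and rank 464 from the top among 14678 genes. Its difference was 2.14 within slide 1 and 2.24 within slide 2, and it was called on leaving out any of the 8 arrays. With the normexp background correction, run with an offset of 50, it was 0.74 (adjusted p = 0.083).

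The lowest mitochondrial mRNA was Lars2, the mitochondrial leucyl enzyme, with 6.90, 7.33 and 7.46 in the GFP IP, 6.94 and 6.68 in the PABP1 IP and 8.73, 9.17 and 9.02 in the input. Its IPs overlapped each other and lay below all inputs, with −1.74 ± 0.19 for the GFP IP over input (adjusted p = 0.000246). Iars2, the mitochondrial isoleucyl enzyme, had 2.37, 2.31 and 2.39 in the GFP IP, 1.88 and 1.93 in the PABP1 IP and 2.89, 2.77 and 2.73 in the input. Here the GFP IP lay between the PABP1 IP and the input on every array, and it was −0.44 ± 0.10 over input (adjusted p = 0.00771), −0.52 within slide 1 and −0.35 within slide 2 with no call on either slide. This sign turned to 0.10 when arrays were centred on their medians and to 0.08 in the authors' deposited table of group means. Calls were also made for the mitochondrial seryl (Sars2, −1.13 ± 0.15), methionyl (Mars2, −0.88 ± 0.16), tryptophanyl (Wars2, −0.83 ± 0.23) and prolyl (Pars2, −0.62 ± 0.22) enzymes. The call for Pars2 was lost without input 1, input 2, GFP IP 1, GFP IP 2 or GFP IP 3 (adjusted p = 0.061 to 0.12), and that for Wars2 without GFP IP 1 (adjusted p = 0.0503). Relative to the median gene these 4 lay at −0.62, −0.37, −0.32 and −0.11. Centred on array medians, Sars2 kept its call and the other 3 lost theirs.

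Fars2, the mitochondrial phenylalanyl enzyme, and Yars2, the mitochondrial tyrosyl enzyme, were not called in the GFP IP over input. Fars2 had 1.01, 0.21 and 0.23 in the GFP IP, 1.45 and 1.29 in the PABP1 IP and 0.43, 0.32 and 0.25 in the input. A single GFP IP array stood above the inputs and the others just below them (0.15 ± 0.22, adjusted p = 0.575). Yars2 had 1.58, 2.05 and 1.37 in the GFP IP, 3.45 and 2.86 in the PABP1 IP and 2.58, 2.41 and 1.91 in the input. Its GFP IP overlapped the input through 1 array of each group (−0.63 ± 0.27, adjusted p = 0.0712). It was called lower with slide as a block (−0.44, adjusted p = 0.00612), without input 3 (−0.83, adjusted p = 0.0322) and without GFP IP 2 (−0.82, adjusted p = 0.0356).

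**Figure D1:**
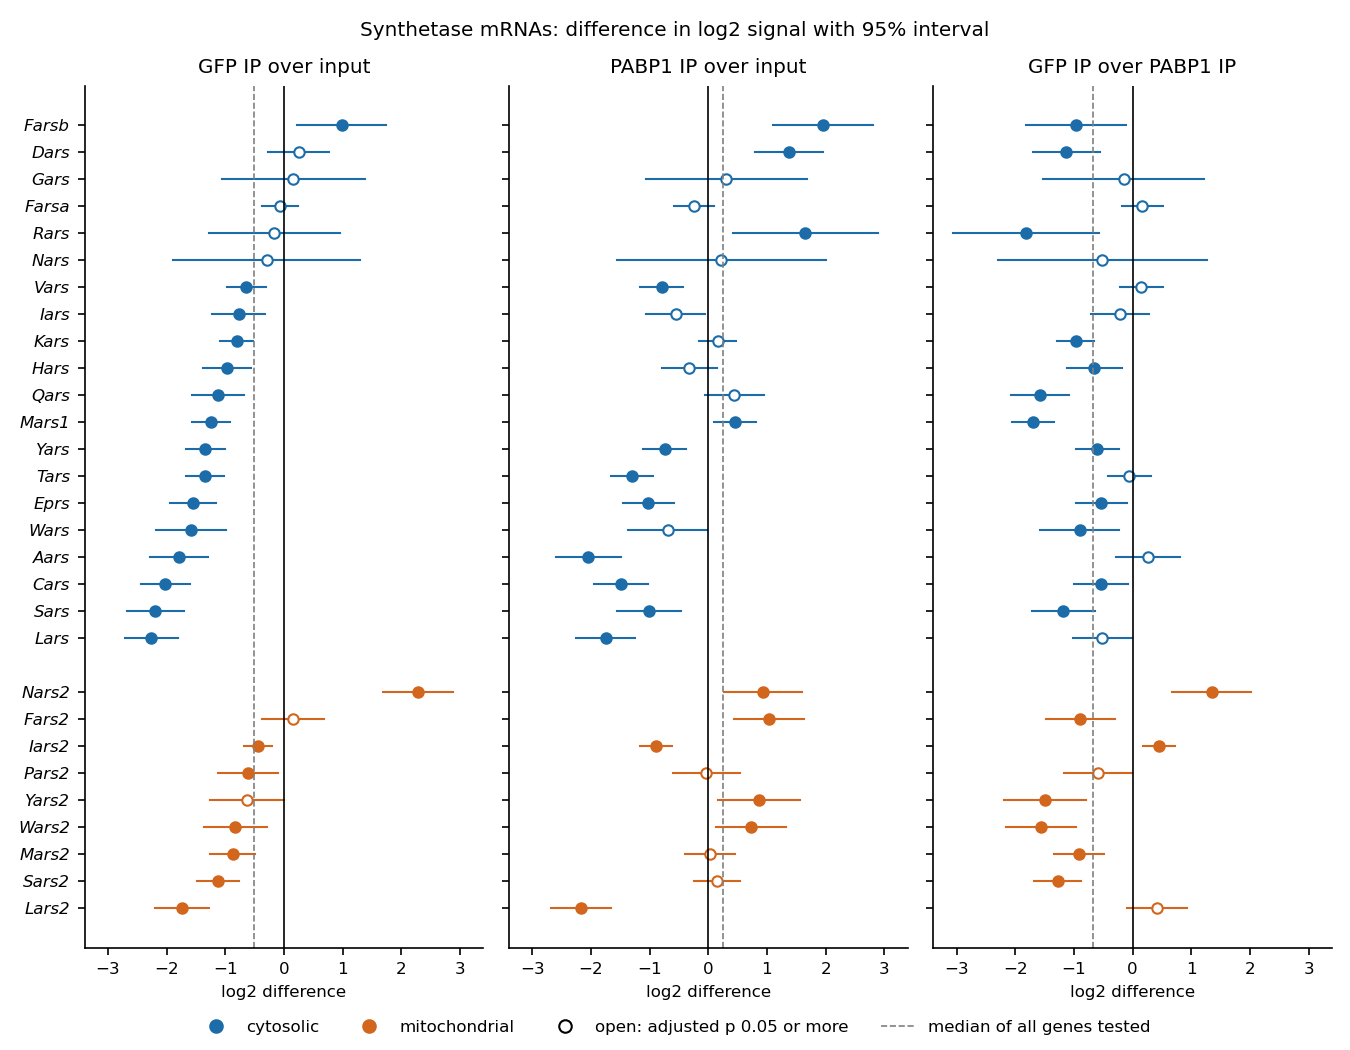
Differences in log2 signal (horizontal axes) of 29 synthetase mRNAs, cytosolic in blue and mitochondrial in orange, in each comparison, with 95% intervals; filled points have an adjusted p under 0.05, and dashed lines mark the median of all genes tested. In the GFP IP over input most points are filled on the negative side, and Nars2 lies at 2.28 and Farsb at 0.98.

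In the PABP1 IP the synthetase mRNAs spread to both sides of the input. Of the 30 genes, 8 were higher (26.7%), 11 were lower (36.7%) and 11 were not called, while 34.4% of all genes tested were higher and 25.3% were lower. Their median difference was −0.14, which was 0.38 below the median gene. The cytosolic enzymes counted 4 higher and 8 lower of 20 with a median of −0.44, and the mitochondrial enzymes 4 higher and 3 lower of 10 with a median of 0.09. Relative to the median gene these medians were −0.68 and −0.15.

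The highest in the PABP1 IP over input was Farsb at 1.95 ± 0.36 (adjusted p = 0.00279), a 3.86-fold higher signal, with the array values given above in which no PABP1 IP array overlapped an input. With normexp Farsb was at 0.97 without a call (adjusted p = 0.0641). Dars followed at 1.37 ± 0.25 (adjusted p = 0.00232). A dimmer probe of Dars, also well above background on all arrays, gave −0.69 and was not tested by itself. Rars, counted among the 8 higher genes, passed the filter on dim probes through the PABP1 IP alone, the group in which it is highest. Its 1.66 ± 0.53 (adjusted p = 0.0292) was therefore favoured by the filter and is given as a description; with normexp it was 0.17 (adjusted p = 0.843). Fars2 was 1.04 ± 0.25 over input (adjusted p = 0.00954), Nars2 0.93 ± 0.28 (adjusted p = 0.024), Yars2 0.86 ± 0.30 (adjusted p = 0.0397), Wars2 0.73 ± 0.25 (adjusted p = 0.041) and Mars1 0.46 ± 0.15 (adjusted p = 0.0335). Of the 8 higher calls, 3 were made again with all 3 other scalings, those of Dars, Fars2 and Farsb. Several of the 8 calls were lost when 1 array was left out. Leaving out a PABP1 IP array left 1 in that group. Without PABP1 IP 1 the calls of Rars, Fars2, Nars2, Yars2, Wars2 and Mars1 were lost. The differences of Rars (1.92), Nars2 (1.08), Wars2 (0.88) and Mars1 (0.51) were then larger, and those of Fars2 (0.96) and Yars2 (0.56) smaller. Without PABP1 IP 2 the calls of Rars (1.40), Nars2 (0.79), Wars2 (0.57) and Mars1 (0.40) were lost, with smaller differences. Calls were also lost without input 1 (Mars1), input 2 (Rars, Yars2, Wars2 and Mars1), input 3 (Yars2 and Wars2), GFP IP 1 (Yars2 and Wars2), GFP IP 2 (Wars2) and GFP IP 3 (Mars1), with adjusted p-values of 0.0547 to 0.104. Farsb and Dars were called on leaving out any of the 8 arrays. Farsb, Dars and Yars2 were also called with slide as a block and within each slide, where Rars was 1.84 within slide 1 (adjusted p = 0.0356) and 1.03 within slide 2 (adjusted p = 0.128).

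The lowest in the PABP1 IP over input were Lars2 (−2.16 ± 0.22, adjusted p = 0.000153), Aars (−2.05 ± 0.23, adjusted p = 0.000274) and Lars (−1.75 ± 0.21, adjusted p = 0.00038). Aars, the alanyl enzyme, had 5.60, 5.71 and 5.44 in the GFP IP, 5.55 and 5.10 in the PABP1 IP and 7.68, 7.43 and 7.0 in the input, so that the IPs overlapped each other and both lay below all inputs. Also lower were Cars (−1.49), Tars (−1.30), Eprs (−1.02), Sars (−1.02), Iars2 (−0.89), Vars (−0.79) and Yars (−0.74), with standard errors of 0.11 to 0.23 and adjusted p-values of 0.000327 to 0.00718. The call for Sars was lost without PABP1 IP 2 (−0.80, adjusted p = 0.0548). Of the 11 lower calls, 9 were made again with slide as a block and within each slide. The 11 mRNAs without a call ran from Wars (−0.69), Iars (−0.56), Hars (−0.32), Farsa (−0.24) and Pars2 (−0.03) through Mars2 (0.04), Sars2 (0.15), Kars (0.16), Nars (0.22) and Gars (0.31) to Qars (0.44). Without input 3, Iars (−0.71, adjusted p = 0.0212) and Wars (−0.90, adjusted p = 0.025) were called lower, and without GFP IP 2 so was Iars (−0.56, adjusted p = 0.0486). With slide as a block, Iars (−0.49, adjusted p = 0.00319), Hars (−0.37, adjusted p = 0.0229) and Wars (−0.62, adjusted p = 0.0272) were called lower and Qars higher (0.51, adjusted p = 0.00555), though none of these 4 was called within either slide alone.

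Set directly against the PABP1 IP, the GFP IP had 18 synthetase mRNAs lower (60%), 2 higher (6.67%) and 10 not called, where 47.6% of all genes tested were lower and 23.8% were higher. Their median of −0.63 lay 0.05 above that of the median gene, with 16 members above it and 14 below it, so the members as a whole shifted about as far as all genes did. With arrays centred on their medians the counts were 7 lower and 6 higher of 30, where 33.2% of all genes were lower and 29.3% were higher. As scaled here, among cytosolic enzymes 12 were lower, 0 were higher in limma's test, also at an unadjusted p under 0.05, and 8 were not called. Among mitochondrial enzymes 6 were lower, 2 higher and 2 not called. These counts depended on the scaling. Arrays were also centred, scaled by the 75th percentile over probes that all arrays detected, or quantile normalized. In that order Aars (0.72, 0.66 and 1.04), Farsa (0.63, 0.57 and 0.65) and Vars (0.61, 0.55 and 0.53) were called higher each time. So was the mitochondrial Lars2 (0.88, 0.82 and 1.77).

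Of the genes well above background on all arrays, the lowest in the GFP IP over the PABP1 IP were Mars1 (−1.70 ± 0.15, adjusted p = 5.96e-05) and Qars (−1.57 ± 0.21, adjusted p = 0.000435), both of the multisynthetase complex. Rars, counted among the 18, was at −1.82 ± 0.53 (adjusted p = 0.0169) and at −0.31 with normexp (adjusted p = 0.673). It passed the filter through the PABP1 IP alone and was well above background on 2 of 3 GFP IP arrays, so that this value too is a description. Mars1, the methionyl enzyme, had 3.02, 2.81 and 2.89 in the GFP IP, 4.55 and 4.66 in the PABP1 IP and 4.09, 3.99 and 4.36 in the input. The GFP IP lay below the input and the PABP1 IP above it on every array. Qars, the glutaminyl enzyme, had 5.78, 5.97 and 5.61 in the GFP IP, 7.52 and 7.20 in the PABP1 IP and 7.16, 6.99 and 6.59 in the input, again with the GFP IP lowest and the PABP1 IP highest without overlap. Nars2 (1.35 ± 0.28, adjusted p = 0.00405) and Iars2 (0.45 ± 0.11, adjusted p = 0.00971) were higher in the GFP IP, and Lars2 came next at 0.42 ± 0.22 without a call (adjusted p = 0.116). Within slides Nars2 was 1.27 on slide 1 (adjusted p = 0.0895) and 1.31 on slide 2 (adjusted p = 0.0047), and Iars2 was 0.43 and 0.45 without a call on either.

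Lower in the GFP IP than in the PABP1 IP were also Wars2 (−1.55), Yars2 (−1.49), Sars2 (−1.28), Sars (−1.18), Dars (−1.13), Farsb (−0.97), Kars (−0.97), Mars2 (−0.91), Wars (−0.90), Fars2 (−0.89), Hars (−0.65), Yars (−0.60), Cars (−0.54) and Eprs (−0.53). Of the 18 calls, 11 were made again with slide as a block and within each slide, and 9 held on leaving out any of the 8 arrays: Dars, Kars, Mars1, Mars2, Qars, Sars, Sars2, Wars2 and Yars2. The other 9 calls, and that of Iars2, were lost without at least 1 array. Without PABP1 IP 1 these included Cars, Eprs, Fars2, Iars2, Wars and Yars (adjusted p = 0.0615 to 0.25), and without PABP1 IP 2 they included Eprs, Farsb, Hars and Rars (adjusted p = 0.0747 to 0.27). Cars, Eprs and Farsb also lost their calls without input 2, GFP IP 1 or GFP IP 3, Farsb without GFP IP 2 and Wars without GFP IP 3 (adjusted p = 0.0566 to 0.119). Not called were Pars2 (−0.59), Nars (−0.52), Lars (−0.51), Iars (−0.21), Gars (−0.15), Tars (−0.05), Vars (0.15), Farsa (0.17), Aars (0.26) and Lars2 (0.42). Among these, Pars2 was called lower without input 3 or PABP1 IP 2, Lars lower without GFP IP 2 and Lars2 higher without GFP IP 1 (adjusted p = 0.0268 to 0.0384). With slide as a block, Pars2 (−0.52, adjusted p = 0.0122) and Lars (−0.45, adjusted p = 0.00708) were called lower. Within slides Pars2 was called on slide 1 (−0.75, adjusted p = 0.041) and not on slide 2 (−0.38, adjusted p = 0.129), and Lars on neither. Quantile normalization turned Tars to 0.56 (adjusted p = 0.029) and Cars to 0.13. It also took Sars to −0.06 (adjusted p = 0.743) and Qars to −0.42 (adjusted p = 0.057). Of the 18 lower calls, 5 were made again with all 3 other scalings, those of Dars, Mars1, Sars2, Wars2 and Yars2. The 2 higher calls, of Nars2 and Iars2, were made again with all 3.

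**Figure D2:**
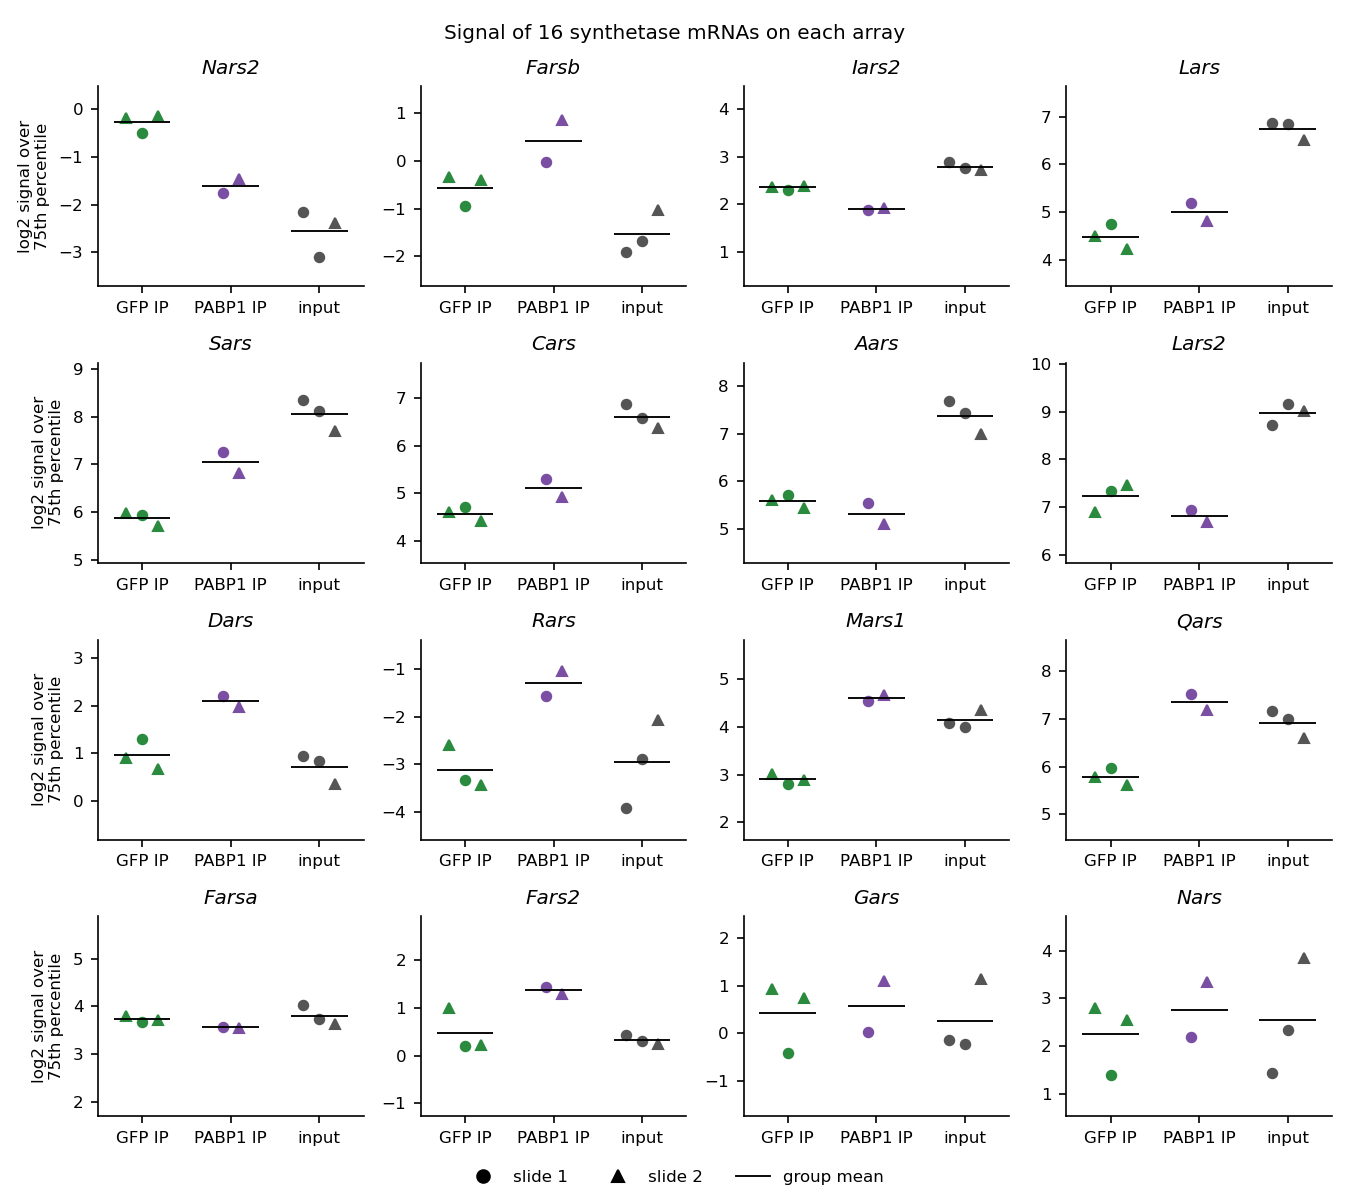
Log2 signal over each array's 75th percentile (vertical axes, all spanning the same range of log2 units) for 16 synthetase mRNAs on each array, with the GFP IP at the left, the PABP1 IP in the middle and the input at the right; circles are slide 1, triangles slide 2 and bars group means. Nars2 falls into 3 separate levels with the GFP IP highest, Lars and Sars into 3 levels with the GFP IP lowest, and Gars and Nars split by slide.

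Both comparisons with the input use the same 3 input arrays, so a high or low input moves both. The share of all genes that fell into the same joint classes was not counted, so the joint counts are a description of the members. Taken singly, 43.3% of all genes were lower than input in the GFP IP and 25.3% in the PABP1 IP. With these limits stated, 8 cytosolic mRNAs (Aars, Cars, Eprs, Lars, Sars, Tars, Vars and Yars) and the mitochondrial mRNAs Iars2 and Lars2 were lower than input in both IPs. Lower in the GFP IP and not called in the PABP1 IP were 5 cytosolic (Hars, Iars, Kars, Qars and Wars) and 3 mitochondrial mRNAs (Mars2, Pars2 and Sars2). As scaled here, Mars1 and Wars2 went opposite ways, lower in the GFP IP and higher in the PABP1 IP. Mars1 lost its PABP1 IP call with centring (0.53), with the 75th percentile over probes that all arrays detected (0.22) and with quantile normalization (0.12). Wars2 lost its PABP1 IP call with centring (0.80) and with that percentile (0.49). Its GFP IP call was lost with centring (−0.29) and with quantile normalization (−0.46). Farsb and Nars2 were higher in both IPs. Dars, Fars2 and Yars2, and Rars with the limit given above, were higher in the PABP1 IP and not called in the GFP IP, and Farsa, Gars and Nars were called in neither. For Farsb and Nars2 the difference between the IPs had opposite signs, −0.97 and 1.35 for the GFP IP over the PABP1 IP.

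**Figure D3:**
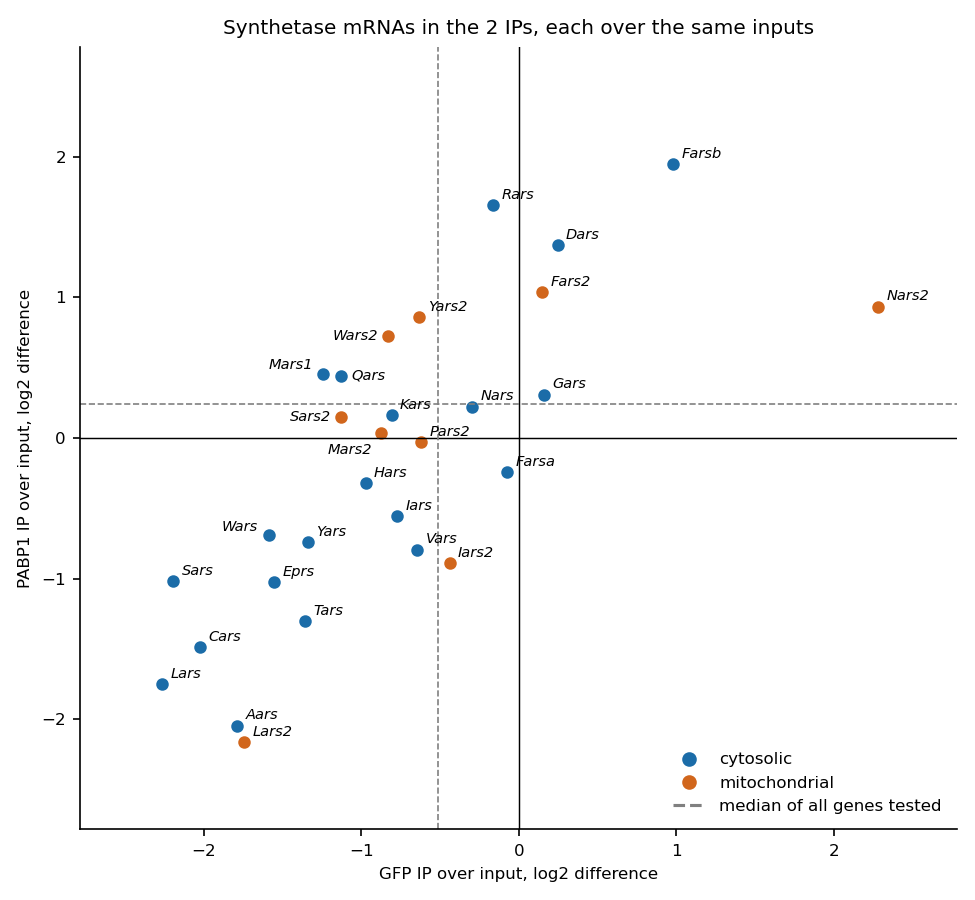
The same 29 synthetase mRNAs, each by its log2 difference in the GFP IP over input (horizontal axis) and in the PABP1 IP over input (vertical axis), cytosolic in blue and mitochondrial in orange; both axes share the input arrays, and dashed lines mark the medians of all genes tested. Nars2 lies farthest right at 2.28 and 0.93, Farsb highest at 0.98 and 1.95, and Lars, Aars and Lars2 in the lower left.

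The cytosolic and the mitochondrial enzyme of an amino acid differed in their calls for asparagine, phenylalanine and tyrosine in the GFP IP over input. For asparagine, Nars was not called (−0.30) and Nars2 was higher (2.28). For phenylalanine, Farsb was higher (0.98), and Farsa (−0.07) and Fars2 (0.15) were not called. For tyrosine, Yars was lower (−1.34) and Yars2 was not called (−0.63). Yars, the cytosolic tyrosyl enzyme, had 2.75, 2.61 and 2.67 in the GFP IP, 3.44 and 3.11 in the PABP1 IP and 4.19, 3.99 and 3.87 in the input, 3 levels without overlap. The difference between the enzymes of a pair was not tested. Among the members, both enzymes were lower in the GFP IP than in the input for isoleucine, leucine, methionine, proline, serine and tryptophan.

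Genes that serve both compartments or carry more than 1 activity did not share a pattern. Kars had 3.25, 3.17 and 3.31 in the GFP IP, 4.25 and 4.17 in the PABP1 IP and 4.21, 4.03 and 3.90 in the input. Its GFP IP lay below the other arrays (−0.81 ± 0.12 over input, −0.97 ± 0.13 over the PABP1 IP), and its PABP1 IP overlapped the input (0.16 ± 0.13, interval −0.15 to 0.48). Eprs had 2.33, 2.60 and 2.42 in the GFP IP, 3.04 and 2.91 in the PABP1 IP and 4.26, 4.02 and 3.72 in the input, with the GFP IP lowest and the input highest without overlap. Gars was called in no comparison, except that with slide as a block the GFP IP was lower than the PABP1 IP (−0.35, adjusted p = 0.0201). Without Gars and Kars the cytosolic counts in the GFP IP over input were 13 lower and 1 higher of 18.

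Where a gene had more than 1 usable probe, the probes did not always give the same answer. In 13 synthetase genes 17 other probes passed the same filter as the genes, which asks that all arrays of 1 or more groups be well above background. For genes called in the GFP IP over input, 12 of 15 such probes had the sign of the probe that stands for the gene, for the PABP1 IP over input 10 of 13 and between the IPs 9 of 10. The other probes were not tested by themselves. That of Nars2 passed the filter through the GFP IP alone, so its sign in both comparisons of the GFP IP was favoured by the filter. Probes of Eprs (−1.55, −1.47, −1.40 and −2.13), Lars (−2.26, −1.77 and −2.04) and Cars (−2.03, −1.93 and −0.79) shared their sign in the GFP IP over input. For Aars the brightest probe gave −1.79 and the other 0.08, for Tars −1.35 and 0.27, for Iars −0.77 and 0.61 and for Wars −1.59 and −0.05. For Dars the order was reversed, 0.25 for the brightest probe and −1.57 for the other, and for Farsa it was −0.07 and 1.12. In the PABP1 IP over input, called genes with probes of opposite sign were Dars (1.37 and −0.69), Nars2 (0.93 and −0.83) and Tars (−1.30 and 0.18). Between the IPs, probes of Lars (−0.51, −0.22 and 1.73) and of Eprs (−0.53, −0.55, 0.09 and −0.14) did not all share a sign. Averaging the probes of a gene, Dars was lower (−0.66, adjusted p = 0.00156), Farsa higher (0.52, adjusted p = 0.00866) and Iars without a call (−0.08) in the GFP IP over input, and Nars2 lost its call in the PABP1 IP over input (0.05, adjusted p = 0.876). The other probe of Nars2 was well above background on the 3 GFP IP arrays and on no array of the other groups. This gives a signal at least 1.30-fold higher than in the input and at least 2.05-fold higher than in the PABP1 IP. Because the filter favoured both values, they are given as a description. These bounds set the mean of the GFP IP against the lowest signal well above background on each array of the other group, or the probe's own signal where that was higher.

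**Figure D4:**
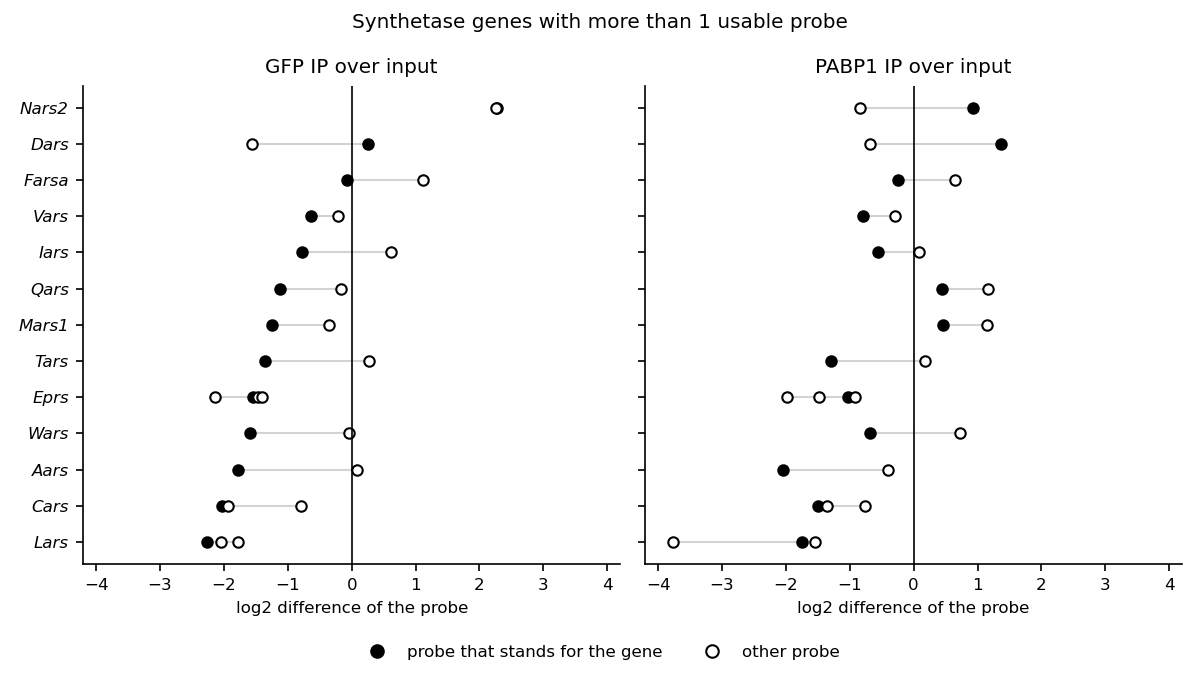
Log2 differences (horizontal axes) of single probes in 13 synthetase genes with more than 1 usable probe, for the GFP IP and the PABP1 IP over input; filled points are the brightest probe, which stands for the gene, and open points other probes. Probes of Eprs, Lars and Cars lie together on the negative side in the GFP IP, those of Dars, Iars, Tars and Aars on both sides of 0, and the open point of Nars2 is well above background in the GFP IP alone.

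The 8 enzymes of the multisynthetase complex, Eprs, Iars, Lars, Mars1, Qars, Rars, Kars and Dars, counted 6 lower and 0 higher in the GFP IP over input by limma, also at an unadjusted p under 0.05. Dars and Mars1, and Rars with the limit given above, were higher and Lars and Eprs lower in the PABP1 IP over input. The other 12 cytosolic enzymes counted 8 lower and 1 higher in the GFP IP and 6 lower and 1 higher in the PABP1 IP. Shares over all genes were 43.3% lower with 21.4% higher in the GFP IP, and 25.3% lower with 34.4% higher in the PABP1 IP; the complex was not tested against the other enzymes. The mRNAs of the 3 scaffold proteins, which hold these enzymes together, were higher in the PABP1 IP than in the input: Eef1e1 by 2.99 (adjusted p = 3.05e-05), Aimp2 by 2.67 (adjusted p = 6.56e-05) and Aimp1 by 0.40 (adjusted p = 0.0364). In the GFP IP over input Eef1e1 was 3.82 higher (adjusted p = 1.48e-05), Aimp1 was lower (−1.51, adjusted p = 6.54e-05) and Aimp2 was not called (−0.33, adjusted p = 0.168). Eef1e1 was higher in the GFP IP than in the PABP1 IP (0.84), and Aimp1 (−1.91) and Aimp2 (−3.00) were lower.

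Synthetases fall into class I and class II by the fold of their catalytic domain. With the further mitochondrial genes included, 15 of 18 class I mRNAs were lower in the GFP IP than in the input and 0 were higher by limma, also at an unadjusted p under 0.05, and 10 of 17 class II mRNAs were lower and 2 higher. In the PABP1 IP over input 4 class I mRNAs were higher and 7 lower, and 4 class II mRNAs were higher and 6 lower. These counts stand beside 43.3% lower and 21.4% higher among all genes in the GFP IP, and 25.3% lower and 34.4% higher in the PABP1 IP, and the difference between the classes was not tested.

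The further mitochondrial genes were Aars2, Cars2, Ears2, Hars2, Rars2, Tars2 and Vars2, of which Hars2 was too dim to be tested. In the GFP IP over input 5 of 6 were lower: Tars2 (−1.58), Aars2 (−1.49), Vars2 (−1.48), Ears2 (−1.0) and Cars2 (−1.0). Rars2, the mitochondrial arginyl enzyme, was at 0.02 ± 0.15 (interval −0.33 to 0.37). Against the input, the PABP1 IP had Aars2 (−1.29), Vars2 (−1.24) and Tars2 (−0.73) lower, with Ears2 (−0.15), Cars2 (−0.10) and Rars2 (0.01) not called. Between the IPs Cars2 (−0.90), Tars2 (−0.85) and Ears2 (−0.84) were lower in the GFP IP, and Vars2 (−0.23), Aars2 (−0.20) and Rars2 (0.01) were not called. With these genes the mitochondrial median in the GFP IP over input was −0.94, against −0.73 for the 10 members. The shares lower among all genes tested were 43.3% in the GFP IP and 25.3% in the PABP1 IP, each over input. Between the IPs 47.6% of all genes were lower in the GFP IP.

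Dtd1, the deacylase matched by its array name, had 0.82, 0.81 and 0.84 in the GFP IP, 2.97 and 3.00 in the PABP1 IP and 1.48, 1.24 and 1.37 in the input. It was higher in the PABP1 IP than in the input (1.62 ± 0.12, adjusted p = 4.78e-05), lower in the GFP IP than in the input (−0.54 ± 0.11, adjusted p = 0.00362) and lower in the GFP IP than in the PABP1 IP (−2.17 ± 0.12, adjusted p = 1.15e-05). It belongs to a list of 7 synthetase-like, editing and peptidyl-tRNA hydrolase genes, 6 of which were higher in the PABP1 IP than in the input, among them Dtd2 (2.23), Prorsd1 (1.92), Dtd1, Ptrh2 (1.00) and Tarsl2 (0.52). Aarsd1 was not called there (0.07). In the GFP IP over input 5 of the 7 were lower, among them Ptrh2 (−1.42), Aarsd1 (−1.14), Prorsd1 (−0.67) and Dtd1, Tarsl2 was higher (0.45) and Dtd2 was not called (0.30). All but Tarsl2 were lower in the GFP IP than in the PABP1 IP. Shares over all genes were 34.4% higher in the PABP1 IP and 43.3% lower in the GFP IP, each over input. Between the IPs 47.6% of all genes were lower in the GFP IP.

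Mitochondria lack a glutaminyl-tRNA synthetase and make Gln-tRNA through an amidotransferase. Of its subunits, Gatb was lower in the GFP IP (−1.52) and in the PABP1 IP (−0.56) than in the input, Gatc was higher in the PABP1 IP (2.23) and not called in the GFP IP (−0.11), and Qrsl1 was called in neither (−0.07 and −0.28). Mtfmt, which formylates the mitochondrial initiator Met-tRNA, was higher in the PABP1 IP (0.50) and not called in the GFP IP (0.09). Gatc (−2.34), Gatb (−0.96) and Mtfmt (−0.41) were lower in the GFP IP than in the PABP1 IP, as were 47.6% of all genes. Over input, 43.3% of all genes were lower in the GFP IP, and 34.4% were higher and 25.3% lower in the PABP1 IP.

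Of 9 mitochondrial translation factors 7 were lower in the GFP IP than in the input: Mtif2 (−2.39), Tufm (−1.87), Gfm2 (−1.18), Mtrf1l (−1.01), Mtif3 (−0.93), Mtrf1 (−0.79) and Mrrf (−0.74). Tsfm, the exchange factor of the elongation factor Tufm, was higher (1.03) and Gfm1 was not called (−0.12). In the PABP1 IP over input Tsfm (1.57), Mrrf (1.19) and Gfm1 (0.49) were higher, Mtif2 (−1.50) and Gfm2 (−1.29) were lower, and the largest differences without a call were those of Tufm (−0.48) and Mtrf1 (0.35). Between the IPs 7 were lower in the GFP IP and 0 were higher by limma, also at an unadjusted p under 0.05, with Mtif2 (−0.89) and Gfm2 (0.11) not called.

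Selenocysteine is made on its tRNA after seryl-tRNA synthetase has charged it with serine. Of 6 genes of this route, Eefsec (−1.18), Sepsecs (−0.84) and Pstk (−0.74) were lower in the GFP IP than in the input, and Sephs1 (0.45) and Sephs2 (0.21) had the largest differences without a call. Pstk (1.89), Trnau1ap (1.28) and Sephs2 (0.64) were higher in the PABP1 IP than in the input, and Sephs1 (0.17) and Sepsecs (0.14) were not called. Pstk (−2.63), Eefsec (−1.28), Trnau1ap (−1.22) and Sepsecs (−0.98) were lower in the GFP IP than in the PABP1 IP. Over input, 43.3% of all genes were lower in the GFP IP and 34.4% were higher in the PABP1 IP. Between the IPs 47.6% were lower in the GFP IP.

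Of 32 genes of tRNA maturation and export 31 were tested, all but Adat3. Among these, 20 were lower in the GFP IP than in the input, 2 were higher and 9 were not called. That was 64.5% lower and 6.45% higher, beside 43.3% and 21.4% of all genes tested. The higher ones were Tsen34, the catalytic subunit of the splicing endonuclease that cuts the 3′ splice site of tRNA introns (3.08, adjusted p = 1.68e-05), and Pop7 of RNase P (0.70, adjusted p = 0.0213). The subunits Tsen54 (−1.23) and Tsen15 (−0.37) were lower. Differences below −1 were also found for the RNase P subunits Pop1, Pop4, Pop5 and Rpp21, for the RNase Z gene Elac2, and for the tRNA-modifying genes Adat1, Nsun2, Trmt5, Trmt61a and Trmu. Trmt1, Trmt6, Pus1, Adat2, Rpp38, Rpp40 and Rpp30 were lower by less, from −0.95 to −0.46. Elac1 (0.82) and the tRNA exporter Xpot (0.51) had the largest differences without a call.

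Of these 31 genes 14 were higher, 5 were lower and 12 were not called in the PABP1 IP over input. Their shares were 45.2% higher and 16.1% lower, beside 34.4% and 25.3% of all genes. Higher were Rpp30 (1.75), Tsen15 (1.75), Adat2 (1.57), Clp1 (1.45), Rpp25 (1.45), Pop7 (1.39), Rpp40 (1.23), Rpp21 (1.18), Rpp38 (0.94), Pop5 (0.88), Qtrt1 (0.68), Tsen34 (0.61), Pus3 (0.57) and Pus1 (0.50). Lower were Xpot (−1.54), Pop1 (−1.27), Trmu (−0.90), Elac2 (−0.79) and Trmt6 (−0.69), and Adat1 (−1.01) and Nsun2 (−0.68) had the largest differences without a call. Between the IPs Tsen34 (2.47) and Xpot (2.05) were higher in the GFP IP and 21 genes were lower, from Adat2 (−2.34), Pop5 (−2.33), Rpp21 (−2.24), Rpp30 (−2.22) and Tsen15 (−2.12) to Pus3, Trmu, Qtrt1, Elac2 and Pop7 (−0.82 to −0.70). Others were Pop4, Rpp38, Rpp40, Rpp25, Trmt5, Trmt1, Pus1, Clp1, Trmt61a and Tsen54, and Adat1 (−0.56) and Rpp14 (−0.40) were not called. Between the IPs the 31 genes thus had 6.45% higher and 67.7% lower, beside 23.8% and 47.6% of all genes.

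Many cytosolic synthetase genes are transcribed under the factor ATF4 when amino acids run short, and 32 of 33 other genes of that response were tested, all but Slc7a11. Over all genes tested, 21.4% were higher and 43.3% lower in the GFP IP over input. In the PABP1 IP over input 34.4% were higher and 25.3% lower, and between the IPs 23.8% and 47.6%. The 32 genes had 28.1% and 40.6%, 34.4% and 12.5%, and 28.1% and 46.9% in the same order. In the GFP IP over input 9 were higher: Cth (3.06), Cebpb (2.45), the leucine transporter gene Slc7a5 (2.00), Gpt2 (1.98), Atf4 itself (1.63), Mthfd2 (1.49), Ddit4 (1.01), Slc7a3 (0.91) and Slc38a2 (0.79). Lower were 13: Slc1a5 (−1.86), the serine synthesis genes Phgdh (−1.78) and Psph (−1.25), the asparagine synthetase gene Asns (−1.47), and Aldh18a1, Stc2, Nupr1, Shmt2, Sesn2, Atf5, Ddit3, Slc3a2 and Slc1a4 (−1.17 to −0.42). Chac1 (0.65), Trib3 (−0.59) and Vldlr (−0.59) had the largest differences without a call. The PABP1 IP had 11 higher than the input, namely Atf4 (2.06), Cebpg (1.83), Eif4ebp1 (1.47), Ddit3 (1.42), Cth (1.34), Chac1 (1.15), Pycr1 (1.13), Nupr1 (1.08), Atf3 (0.94), Got1 (0.73) and Psph (0.56). Sesn2 (−1.32), Slc1a4 (−1.10), Slc1a5 (−0.79) and Aldh18a1 (−0.57) were lower there, and Slc7a1 (−1.53) and Slc7a5 (−0.58) were not called. Between the IPs Slc7a5 (2.58), Gpt2 (2.38), Slc7a1 (2.01), Cebpb (1.98), Cth (1.73), Slc7a3 (1.45), Slc38a2 (0.85), Slc1a4 (0.68) and Sesn2 (0.45) were higher in the GFP IP. Lower in the GFP IP were 15, Nupr1 (−2.16), Eif4ebp1 (−1.97), Ddit3 (−1.92), Psph (−1.81), Phgdh, Atf3, Cebpg, Stc2, Atf5, Slc1a5, Trib3, Asns, Pycr1, Shmt2 and Aldh18a1, while Mthfd2 (1.20) and Ddit4 (0.65) were not called.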

How the data were processed

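RNA of 3 GFP IPs, 2 PABP1 IPs and 3 inputs was measured on 8 one-colour Agilent arrays (design 014868). Per the file headers, Feature Extraction 9.1.3.1 made the deposited intensity values: gProcessedSignal is background-subtracted and detrended within the array, and it is not scaled between arrays. The flags deposited beside it, coded 0 or 1, mark spots well above background and outliers. The authors' deposited table of mean intensity per group, whose scaling is not stated, was put on the log2 scale as an alternative without a test. No header or label names a genome build.

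The log2 of the processed signal minus that of each array's 75th percentile over 43379 probe spots was averaged per probe (41174 probes), leaving out control spots and 32 probes with an outlier spot. The probe with the highest mean signal stood for its gene. A gene was tested where all arrays of 1 or more groups had it well above background. The fit used all 8 arrays with limma 3.58.1 (R 4.3.3; functions lmFit and eBayes), leaving 5 residual degrees of freedom, and Benjamini-Hochberg adjustment ran over 14678 genes. The number of arrays limits the precision. Among tested genes, names came from a RefSeq table by accession (10712), symbol (1464) or synonym (787), and 1715 kept the array's name. The code was tested on simulated data.

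Groups came from the sample titles. The members, lists and tests were chosen with earlier results of these data known. Members were named, except that some genes are not reported here; array values were given for the 3 highest and 3 lowest members per comparison, Gars, Kars, Eprs, Farsa, Farsb and amino acids whose enzymes differed in call. Other lists were named by their called genes and the 2 largest differences without a call. Alternatives were 3 other scalings, normexp background correction, 2 other filters, the mean of probes, slide and replicate blocks, each slide alone, array weights, only the groups compared and each array left out. Single probes, the further mitochondrial genes and classes by array symbol were added after seeing the data. Replicate numbers shared by the groups did not pair the arrays: residual correlations of same-numbered arrays ran from −0.739 to 0.624.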

Additional observations from a re-analysis of the deposited data

How the results depend on the processing

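Medians here are relative to the median gene. The cytosolic median in the GFP IP over input (−0.54) was −0.93 with normexp, −0.27 without the filter on dim probes, −0.64 over genes well above background on all arrays, −0.27 with the mean of probes, and −0.69 and −0.65 within slides 1 and 2. In the PABP1 IP over input (−0.68) it was −0.83 with quantile normalization, −0.11 with normexp, −0.12 without the filter and −0.39 with the mean of probes. Between the IPs (0.11) it was −0.69 with normexp, −0.30 without the filter and −0.15 within slide 1. The mitochondrial median in the GFP IP over input (−0.22) was 0.052 without the filter and −0.42 with the further genes. In the PABP1 IP over input (−0.15) it was 0.087 with normexp and 0.41 without the filter, and between the IPs (−0.16) it was −0.57 without the filter. The cause of these moves was not tested.

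With normexp, the members called were 0 higher and 6 lower in the GFP IP over input, 1 and 1 in the PABP1 IP over input, and 0 and 6 between the IPs. Of all genes normexp then called 4.03% higher and 6.58% lower, 11.2% and 4.37%, and 7.56% and 21.2% in the same order, fewer than without it in each. Without the filter 1, 3 and 1 members were higher (9.77%, 15.4% and 11.3% of all genes), and 11 were lower between the IPs (23.6%). Over genes well above background on all arrays 1 was higher in the GFP IP over input (23.3% of these genes) and 1 between the IPs (25.6%). Centring gave 13 lower in the GFP IP over input (21.1% of all genes). Between the IPs it gave 6 higher and 7 lower (29.3% and 33.2%). Taking the 75th percentile over probes that all arrays detected gave 3 higher in the PABP1 IP over input (28.5%). Between the IPs it gave 6 higher and 9 lower (30.5% and 35.5%), where quantile normalization gave 7 and 8 (28.4% and 37.4%). Within each slide the PABP1 IP had 1 array, so the counts of members higher within slides are not given. With only the groups compared, 3 were higher in the PABP1 IP over input (32.1%). At an unadjusted p under 0.05, limma's fit with the 75th percentile had 2 higher in the GFP IP over input and 2 between the IPs.

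The replicate number, which the labels do not show to be a pairing, was also used as a block. Then 5 members were higher in the PABP1 IP over input (32.6% of all genes), and the cytosolic median between the IPs was −0.016. Leaving out an array moved the cytosolic medians within −0.60 to −0.49, −0.76 to −0.61 and −0.082 to 0.11 in the GFP IP and the PABP1 IP, each over input, and between both IPs, and the mitochondrial medians within −0.28 to −0.11, −0.15 to −0.08 and −0.35 to −0.05. In the GFP IP over input 1 to 2 members were then higher and 19 to 22 lower, beside 18.8% to 21.2% and 36.3% to 45.4% of all genes. Leaving out an input or GFP IP array, 4 to 7 members were higher in the PABP1 IP over input (31% to 34.4% of all genes). Between the IPs 2 to 3 were higher (21.6% to 24.2% of all genes). Leaving out a PABP1 IP array left 1 in that group, so its counts are not given.

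Turned in sign were Iars2 in the GFP IP over input with centring (0.10) and in the authors' deposited table (0.079), Dars (−0.66) and Farsa (0.52) there with the mean of probes, Cars (0.13) and Tars (0.56) between the IPs with quantile normalization, and Wars2 in the PABP1 IP over input with normexp (−0.0078). Of the values of single genes under the alternatives, 1694 kept their direction and side of the threshold, 216 lost a call, 57 gained one and 7 turned. Other probes taken singly gave values without a test. Nars2 and Rars were not well above background on all arrays, which limits the precision of their differences.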
